A study of Mus musculus with 21 samples.

Results

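The cytosolic ribosomal protein genes encode the proteins of the ribosome outside mitochondria. They were taken as the protein-coding genes whose symbol begins with Rpl or Rps and a digit, with Rpsa, Rplp0, Rplp1, Rplp2 and Fau added. Pseudogenes marked -ps and the Rps6k kinases were left out. This rule, which uses no measured value, found 87 genes of the 55536 in the count table. By role they are 43 genes of the large (60S) subunit, 30 of the small (40S) subunit, 3 of the stalk (Rplp0, Rplp1, Rplp2), 2 that make a ribosomal protein fused to ubiquitin or a ubiquitin-like protein (Rps27a, Fau) and 8 paralogs of another gene in the set (Rpl3l, Rpl7l1, Rpl10l, Rpl22l1, Rpl36al, Rpl39l, Rps27l, Rps27rt). The rule also takes in Rps19bp1, which is named for binding RPS19 and is not a ribosomal protein by name.

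Polyadenylated RNA was sequenced from organoids of primary mouse mammary epithelium, either wild type (WT) or homozygous for the ATLD1 allele of Mre11 (ATLD), the nuclease of a complex that senses DNA double-strand breaks. All cultures carried neuT, an activated form of rat Erbb2 and an oncogene, and each genotype was sampled at day 0, 14 and 28 of its activation, with 3 libraries in each of 6 groups. The original WT libraries were sequenced as a first batch, and the 9 ATLD libraries as a second batch together with a repeat run of replicate 1 of each WT day (the resequenced runs), 21 libraries in all. Whether the 3 libraries of a group stem from different mice is not in the labels, so p-values measure only the spread between these libraries, which may be technical. There was no culture without neuT, so time after activation and time in culture cannot be told apart, and in bulk RNA fewer cells of a type and less RNA per cell cannot be told apart.

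Each cytosolic ribosome holds a copy of most of these proteins, so their genes are kept at matched levels, and many of their mRNAs begin with a run of pyrimidines (the 5′ terminal oligopyrimidine, or TOP, tract) through which mTORC1 and the RNA-binding protein LARP1 control translation. MYC raises the transcription of ribosome genes in growing cells. When assembly falters, free RPL5 and RPL11 bind MDM2 and thereby stabilise p53.

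Libraries held 30905703 to 51757203 counts. Levels below are library-scaled counts after TMM normalization (CPM, per 1000000 counts), not divided by length unless stated. Mre11a, the gene that carries the allele, was at 42.2 to 58.6 CPM in all WT libraries and at 14.1 to 17 CPM in all ATLD libraries. Epithelial markers defined every library: Epcam was at 561 to 1420 CPM and Krt14 at 839 to 5190 CPM. Luminal markers (Krt8, Krt18, Krt19, Elf5, Kit, Prlr) summed to 4590 to 5120 CPM in ATLD at day 0 and to 3440 to 4520 CPM later, against 2300 to 2630 CPM in WT at day 0 and 566 to 1000 CPM in the original WT libraries later. Prlr went against this sum, at 198 to 208 CPM in WT and 65.8 to 83.5 CPM in ATLD at day 0. Basal markers (Krt5, Krt14, Krt17, Trp63, Acta2, Oxtr) summed to 3810 to 4150 CPM in ATLD at day 0 and to 2040 to 2560 CPM later, against 2170 to 2790 CPM in WT at day 0 and 4070 to 10000 CPM in the original libraries later. Krt5 and Krt14 make up most of that sum, and other basal markers differed from it: at day 0 Trp63 was at 64.4 to 72.3 CPM in ATLD and 122 to 128 CPM in WT, and Acta2 in WT went from 272 to 297 CPM at day 0 to 8.36 to 26.5 CPM later. Oxtr in ATLD was at 102 to 115 CPM at day 0 and 215 to 279 CPM at day 28. Immune markers (Ptprc, Cd3e, Cd79a, Lyz2, Adgre1, Csf1r) summed to 4.67 to 9.88 CPM in the original WT libraries, mostly through Lyz2, and to at most 0.659 CPM in ATLD and 0.377 CPM in the resequenced runs. Lung epithelial markers summed to 8.05 to 16.8 CPM in the original WT libraries, at most 0.887 CPM in ATLD and 1.98 to 2.59 CPM in the resequenced runs. The part that these differences in cell markers play in the results below was not tested.

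The start sites of 8 genes that recur below are shown because a pyrimidine run that begins the mRNA is what marks TOP mRNAs. Each line gives 20 bases on either side of the start in RefSeq, build GRCm38.p6, read along the gene. The longest pyrimidine run is in capitals, or the first where runs tie, as in Rpl39. The marked run lies wholly before the start in Rpl4, Rpl39, Rpl39l and Rps27l, outside the mRNA as RefSeq places it. The gene starts of the GENCODE vM21 annotation differ for some of these. They lie inside the marked run in Rpl4 (64173375) and Rpl39l (10170226) and before it in Rpl39 (37085402). For Rps27l (66946086) the run is before the start there too. It spans the start in Rps6, Rps27 and Fau. In Rps12 it lies after the start, as does the tied run of Rpl39. Rpl4 (chr9:64173367-64173406, plus strand) and Rpl39 (chrX:37085203-37085242, minus strand) belong to the large subunit, and Rpl39l (chr16:10170208-10170247, plus strand) is a paralog of Rpl39. Rps6 (chr4:86857348-86857387, minus strand) and Rps12 (chr10:23787190-23787229, minus strand) belong to the small subunit. Rps27 (chr3:90213629-90213668, minus strand) and its paralog Rps27l (chr9:66946066-66946105, plus strand) follow, and then Fau (chr19:6057927-6057966, plus strand).
Rpl4: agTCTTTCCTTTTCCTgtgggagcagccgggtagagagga
Rpl39: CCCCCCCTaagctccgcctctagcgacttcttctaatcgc
Rpl39l: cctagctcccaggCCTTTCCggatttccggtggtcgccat
Rps6: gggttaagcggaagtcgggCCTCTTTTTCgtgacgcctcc
Rps12: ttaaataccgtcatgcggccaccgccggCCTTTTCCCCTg
Rps27: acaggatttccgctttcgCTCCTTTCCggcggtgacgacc
Rps27l: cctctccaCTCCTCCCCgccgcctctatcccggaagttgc
Fau: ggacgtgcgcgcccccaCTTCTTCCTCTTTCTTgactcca

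RefSeq starts could be matched for 67 of the 87 genes. A run of at least 8 pyrimidines lay within 20 bases before or after the start in 29 of these 67 (43.3%), against 16.0% of all 32851 promoters in the table. The motif CCGGAAG, searched on both strands from 250 bases before to 50 bases after the start, was in 25 of the 67 (37.3%) and in 8.86% of all promoters. The palindrome CACGTG was in 5 (7.46%) and in 7.15% of all promoters. A match of letters is a description and not a bound site.

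The 87 genes took up a larger part of the RNA in ATLD than in WT, and that part shrank in ATLD by day 28. In WT they held 2.95%, 3.29% and 3.20% of all counts at day 0. At day 14 the WT shares were 3.54%, 4.36% and 3.46%, and at day 28 they were 4.21%, 3.43% and 3.98%. The resequenced WT runs gave 3.28%, 4.59% and 4.80% at day 0, 14 and 28. In ATLD the shares were 5.66%, 8.43% and 6.13% at day 0 and 6.08%, 5.85% and 8.20% at day 14. At day 28 the ATLD shares had come down to 4.93%, 4.36% and 4.11%. Group means ± SD (n = 3) were 3.15 ± 0.178%, 3.79 ± 0.496% and 3.87 ± 0.398% in WT, and 6.74 ± 1.48%, 6.71 ± 1.30% and 4.46 ± 0.420% in ATLD, in order of day. ATLD stood above every WT run at days 0 and 14, while at day 28 the ranges overlapped.

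**Figure D1:**
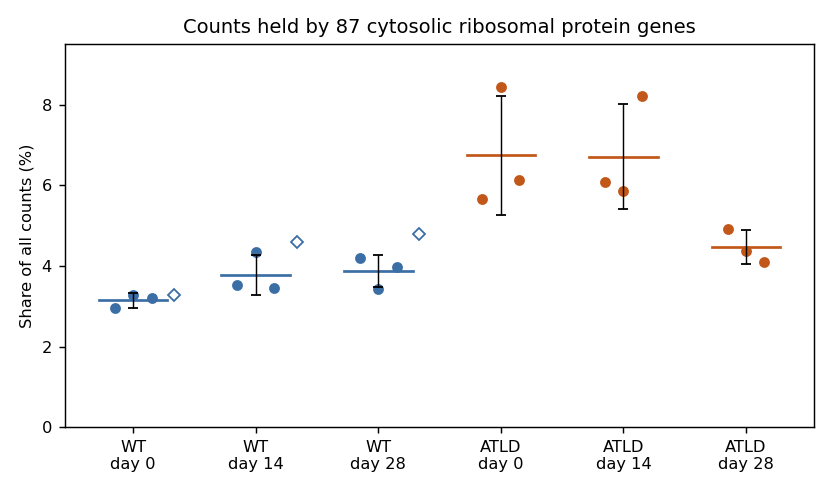
The plot gives, for each library, the percent of all counts that fell on the 87 cytosolic ribosomal protein genes, with WT in blue and ATLD in orange; filled points are original libraries, open diamonds resequenced WT runs, lines the group means and bars 1 SD (n = 3). ATLD at days 0 and 14 lies between 5.66% and 8.43%, above all WT runs, and falls to 4.11% to 4.93% at day 28.

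A pair of ATLD libraries, day 0 replicate 2 and day 14 replicate 3, stood apart with the highest shares (8.43% and 8.20%). Over the 78 genes of the 60S, 40S, stalk and fusion groups they differed from each other by a median of 0.03 and an SD of 0.065 on the log2 scale. From the other libraries of their own groups they differed more, by medians of 0.64 and 0.53 for the day 0 library and 0.47 and 0.53 for the day 14 library, both being higher. Counts without both are given with each comparison. Mitochondrially encoded transcripts, which take up counts too, held 2.53% to 3.0% in ATLD at day 0 and 2.52% to 3.06% in WT at day 0. They held 4.44% and 4.37% in WT day 14 replicates 1 and 3 and 3.66% in WT day 28 replicate 2, against 2.87% in WT day 14 replicate 2 and 2.64% and 2.61% in the other WT day 28 libraries.

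A different group of libraries had low counts of many GC-rich members. In WT day 14 replicates 1 and 3 and WT day 28 replicate 2 the members' log2 level fell with the GC content of the transcript, by 0.81, 0.82 and 0.64 per 10 percentage points. The same slope over other genes was -0.48, -0.47 and -0.38 in these libraries. Single members departed from the trend. In WT day 14 replicate 1, Rps26 and Rpl23a, both at 48.6% GC, had log2 deviations from their means of -1.57 and -1.53. There Rpl12 (55.2% GC) and Rps2 (56.3% GC) were at -0.35 and -0.60. WT day 0 replicate 1, which is part of the WT baseline, went the same way less steeply, with slopes of -0.30 over members and -0.25 over other genes, against -0.03 and -0.01 over members in replicates 2 and 3. For the stalk gene Rplp1, the values were 123 CPM and 119 CPM in replicates 1 and 3 at day 14 against 803 CPM in replicate 2, while the resequenced run of replicate 1 gave 807 CPM. Original and resequenced run of that culture differed by a median of -0.42 on the log2 scale over 85 members, from -2.71 for Rplp1 to 0.84 for Rpl22l1. Across the 85 members this difference and the GC content had r = -0.68, a description over genes of 1 culture. The runs of the day 0 culture showed the same trend, with a median of -0.19, a range from -1.36 for Rplp1 to 0.55 for Rpl22l1 and r = -0.62 with GC content. For the day 28 culture the median was -0.18 and r was -0.27.

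**Figure D2:**
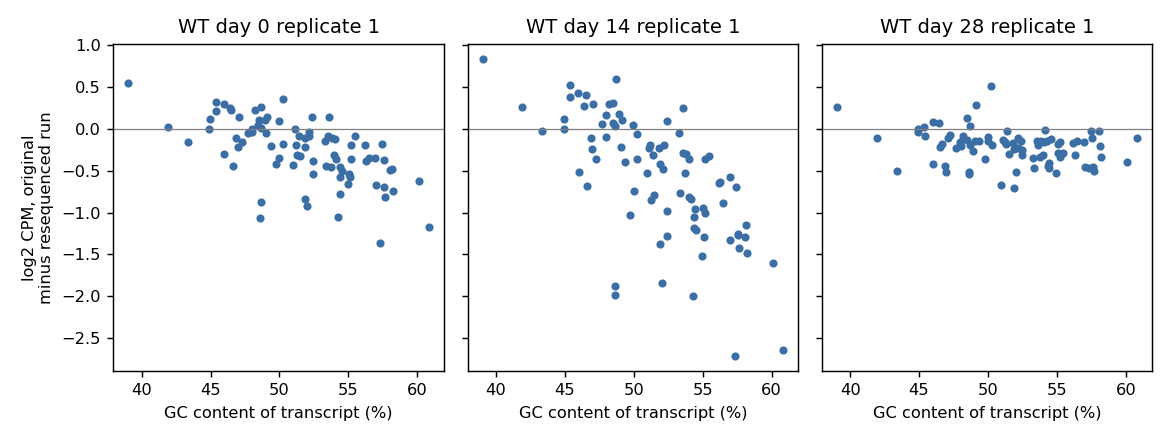
Each point is 1 of 85 cytosolic ribosomal protein genes; the x axis is the GC content of its transcripts in percent and the y axis the log2 CPM of the original run minus that of the resequenced run of the same WT culture. At day 14 the difference falls from 0.84 for the GC-poor Rpl22l1 to -2.71 for Rplp1, at day 0 from 0.55 to -1.36 for the same genes, while the day 28 culture stays between -0.71 and 0.52.

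**Figure D3:**
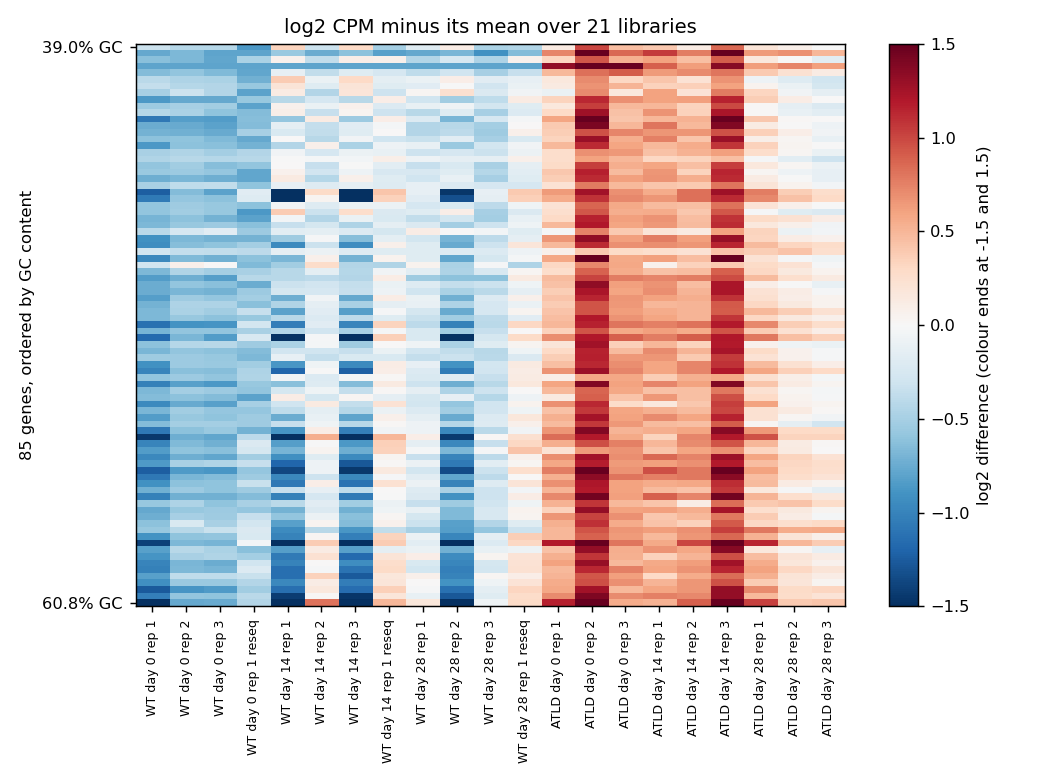
Rows are 85 cytosolic ribosomal protein genes ordered from 39.0% to 60.8% GC and columns the 21 libraries; the colour is log2 CPM minus the gene's mean over all libraries. ATLD libraries of days 0 and 14 are red along nearly their whole column, darkest in day 0 replicate 2 and day 14 replicate 3. Many of the GC-rich rows are dark blue in WT day 14 replicates 1 and 3 and WT day 28 replicate 2.

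Per kilobase of annotated gene length, Rplp1 stood highest of the 87 (1654 CPM per kb over the means of the 6 groups), followed by Rps15 (1348), Rpl4 (1206) and Rpl32 (1107). At the low end, Rpl24 and Rps10 were at 10.5 and 4.39 CPM per kb, far under their subunits' other members. Ribosomal protein genes have many processed pseudogenes (294 with -ps symbols are in the table), and reads that match copies may be lost or moved, so the low levels of such genes are uncertain. Counts on those pseudogenes were 0.014% to 0.037% of all counts in the original libraries. Rpl10l, which in mouse is a testis paralog of Rpl10, had 0 counts in all libraries, and Rpl3l, a muscle paralog of Rpl3, had 37 counts in all, so 85 of the 87 genes were tested.

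At day 0, nearly the whole set was higher in ATLD than in WT. Of the 85 genes tested, 79 were called higher (adjusted p under 0.05) and 0 lower, where 26.1% of all genes tested were called higher. The median log2 difference was 1.16 (2.24-fold), against -0.04 over all genes. By role, 40 of 43 genes of the 60S subunit, 29 of 30 of the 40S, 1 of 3 of the stalk, 2 of 2 fusions and 6 of 6 paralogs were called. Rplp1, Rplp2, Rpl8, Rpl23a, Rpl36 and Rps26 were not called. Every ATLD library lay above every WT library, resequenced run included, for 85 of 85 genes, as it did for 33.0% of all genes tested.

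Of the small subunit, Rps12 was at 348, 428 and 410 CPM in WT at day 0 and 443 CPM in the resequenced run. In ATLD it was at 1013, 2104 and 1007 CPM, all above WT, with replicate 2 highest. RPS12 is a 40S protein that in flies reports on ribosome dosage in cell competition. The fitted difference was 1.51 ± 0.337 (log2 ± SE, edgeR adjusted p = 9.98e-04). Rps6, whose product is phosphorylated by S6 kinase downstream of mTORC1, was at 268, 278 and 274 CPM in WT, 305 CPM in the resequenced run and 578, 1044 and 672 CPM in ATLD. The groups did not overlap, and the difference was 1.29 ± 0.201 (edgeR adjusted p = 3.58e-05). Rpsa, whose product is a 40S protein also known as the laminin receptor, was at 728, 798 and 800 CPM in WT, 788 CPM in the resequenced run and 1589, 2383 and 1794 CPM in ATLD. Its difference was 1.15 ± 0.179. Rps13 (1.51), Rps7 (1.5) and Rps25 (1.5), the other called members of this subunit with the largest log2 differences, likewise did not overlap between the genotypes.

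Of the large subunit, Rpl5 was at 282, 274 and 255 CPM in WT, 314 CPM in the resequenced run and 548, 831 and 634 CPM in ATLD. RPL5 and RPL11 form with 5S RNA the particle that binds MDM2. Rpl11 was at 257, 286 and 280 CPM in WT, 272 CPM in the resequenced run and 571, 750 and 611 CPM in ATLD. The log2 differences of the pair were 1.06 ± 0.177 and 1.10 ± 0.15, again with no overlap. Rpl4, the member with the highest CPM, was at 1712, 1758 and 1738 CPM in WT and 2806, 3563 and 3309 CPM in ATLD, a log2 difference of 0.81 ± 0.111. Rpl3 and Rpl10, a core protein and a late-joining protein of the 60S subunit, differed by 1.01 ± 0.159 and 1.04 ± 0.144.

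For the stalk, where elongation factors bind, Rplp0 was at 801, 1032 and 1029 CPM in WT, 1114 CPM in the resequenced run and 2235, 2952 and 2432 CPM in ATLD. It was called with a log2 difference of 1.0 ± 0.300 (edgeR adjusted p = 9.00e-03). Rplp1 had a larger point estimate, 1.22 ± 0.657, but was not called, and its SE was the wider one (edgeR adjusted p = 0.121). The fusion genes Rps27a and Fau differed by 1.49 ± 0.208 and 1.17 ± 0.376, and both were called.

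At day 14 of neuT the difference between the genotypes was smaller but still covered most of the set. In ATLD 70 of 85 genes were called higher and 0 lower (30.1% of all genes were called higher), with a median log2 difference of 0.81 (1.75-fold) against -0.07 over all genes. Groups did not overlap for 78 of 85 (31.3% of all genes). The 60S subunit had 34 of 43 called, the 40S 27 of 30, and 6 of 6 paralogs were called again. Among called members whose log2 CPM averaged 1 or more, and besides Rps27l, described below, the largest differences were those of Rpl41 (1.28 ± 0.416), Rps19bp1 (1.24 ± 0.175), Rps14 (1.24 ± 0.286) and Rpl38 (1.18 ± 0.251). Rpl41, which encodes a very small and basic 60S protein, was at 324, 796 and 306 CPM in WT and 1642, 1453 and 2923 CPM in ATLD. Its WT values split as the GC trend does, with 927 CPM in the resequenced run of the first, and all ATLD libraries were higher. Fau and 14 others were not called, among them Rplp1, Rplp2, Rpl8 and Rps26 as at day 0.

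By day 28 the genotypes had come close for the core ribosome, while some paralogs stayed apart. Only 11 of 85 genes were called higher in ATLD and 0 lower, below the 29.3% of all genes called higher. This count depended on the fit. It was 46 with the original libraries and no batch term, 34 with an offset for GC content and 6 in the second batch alone. In these fits 33.1%, 40.8% and 26.6% of all genes were called higher. With the GC offset the members' share was no higher than that of all genes. Leaving out 1 library gave 6 to 14 calls. The median log2 difference was 0.22 (1.16-fold). No gene of the 40S, stalk or fusion groups was called by edgeR (13 of all 85 genes had an unadjusted p under 0.05). The 11 were Rpl10, Rpl13a, Rpl14, Rpl30 and Rpl35a of the 60S subunit, 5 paralogs (Rps27l, Rpl39l, Rpl22l1, Rpl36al, Rpl7l1) and Rps19bp1. The call of Rpl10 was lost in 11 alternatives and kept in 20, and that of Rpl22l1 was lost in 5 and kept in 26. Non-overlap held for 41 of 85 genes (34.5% of all genes). Rpl30 was at 167, 177 and 154 CPM in WT, 171 CPM in the resequenced run and 286, 255 and 236 CPM in ATLD, all higher, with a log2 difference of 0.66 ± 0.121. Rps12, in contrast, was at 600, 395 and 566 CPM in WT, 664 CPM in the resequenced run and 787, 668 and 649 CPM in ATLD. ATLD lay above the original WT libraries but not above the resequenced run, and the difference of 0.10 ± 0.325 was not called. DESeq2 called 80, 73 and 10 genes at the 3 days, where it called 26.6%, 30.8% and 29.0% of all genes higher. Its count at day 28 was thus also below the share of all genes.

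These differences rest on how the batch is handled, since only 3 runs link the batches. Within the second batch alone, the ATLD libraries exceeded the resequenced WT run of their day by a median of 1.27, 0.73 and 0.15 on the log2 scale at day 0, 14 and 28. All 3 ATLD libraries were above that run for 85, 83 and 45 of 85 genes. The share of all genes that met this rule is not given here. The stricter rule, above every WT run of the day, was met by 33.0%, 31.3% and 34.5% of all genes. The 45 at day 28 are therefore not read as a result about the members. Without the 2 ATLD libraries of highest share, 69, 60 and 20 genes were called higher. The share of all genes for that fit is not given here. Without ATLD day 0 replicate 2 alone, 22.3% of all genes were called higher at day 0 and 28.7% at day 28. Without ATLD day 14 replicate 3 alone, 27.0% were called higher at day 14. Members are short, with a median transcript of 712 bases against 1951 for all protein-coding genes, and other short genes differed too: those under 1000 bases had a median log2 difference of 0.21, 0.25 and 0.15 at day 0, 14 and 28, while members under 1000 bases had 1.17, 0.84 and 0.23. Genes over 2500 bases had medians of -0.27, -0.34 and -0.32. With an offset for GC content and length, 83, 76 and 17 genes were called higher and 0, 0 and 1 lower, at medians of 1.08, 0.68 and 0.14, and the median of all genes then moved to 0.15, 0.11 and 0.14, with 39.6%, 39.9% and 41.2% of all genes called higher. At day 28 the members' median was thus no higher than that of all genes under this offset. The part of transcript length in the result was not otherwise tested.

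In ATLD the set changed late. Between day 0 and day 14 no member was called (0 of 85 by edgeR and by DESeq2, 1 with an unadjusted p under 0.05, and 11.7% of all genes called in either direction), and the median log2 change was 0.02. That median was 0.21 without ATLD day 0 replicate 2, -0.19 without ATLD day 14 replicate 3 and 0.04 without both, again with 0 calls. From day 0 to day 28, 43 of 85 genes fell and 0 rose, where 15.7% of all genes fell, with a median of -0.56 (0.677-fold). From day 14 to day 28, 39 fell and 0 rose (9.05% of all genes fell), with a median of -0.54. Of the 43 genes that fell from day 0, 22 belong to the 60S subunit, 19 to the 40S, 1 is a fusion gene (Rps27a) and 1 a paralog (Rpl39l). None of the stalk genes was called.

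The 5 largest called falls from day 0 to day 28 among members whose log2 CPM averaged 1 or more were those of Rps12, Rpsa, Rpl32, Rpl17 and Rps24. Rpsa fell from 1589, 2383 and 1794 CPM to 1164, 1038 and 932 CPM, a log2 change of -0.88 ± 0.163 (edgeR adjusted p = 5.68e-04). All day 28 libraries were lower than all day 0 libraries. Rpl32, of the 60S subunit, fell from 1278, 2353 and 1433 CPM to 1002, 932 and 866 CPM (-0.85 ± 0.198), also without overlap. Rps12 fell to 787, 668 and 649 CPM, a change of -0.97 ± 0.310. Without ATLD day 0 replicate 2, its change was -0.53 and was no longer called. Rpl4, a less variable gene, fell from 2806, 3563 and 3309 CPM to 2303, 2091 and 1890 CPM (-0.62 ± 0.104, edgeR adjusted p = 2.17e-04), with no overlap. Rpl5 and Rpl11 fell by 0.61 ± 0.162 and 0.57 ± 0.134 on the log2 scale. Rps19bp1, at 25.9, 35.5 and 29.1 CPM at day 0 and 31.9, 26.9 and 27.3 CPM at day 28, and the paralog Rpl7l1, at 154, 191 and 178 CPM and then 188, 195 and 173 CPM, overlapped between the days, and neither was called.

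Day 28 lay wholly below day 0 for 57 of 85 members (21.5% of all genes) and wholly below day 14 for 63 (18.2% of all genes). Leaving out ATLD day 0 replicate 2 brought the falls from day 0 down to 12, where 12.9% of all genes fell. Leaving out ATLD day 14 replicate 3 brought those from day 14 down to 5, where 6.57% of all genes fell. By calls, the members were then close to all genes. Leaving out ATLD day 28 replicate 2 or 3 gave 28 and 26 falls from day 0, where 12.5% and 14.3% of all genes fell. From day 14 it gave 19 and 14, where 6.19% and 7.07% of all genes fell. Without both ATLD libraries of highest share the counts were 26 and 25, and the share of all genes for that fit is not given here. The medians were -0.34 and -0.38, below 0 in both comparisons.

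In WT the change was upward and smaller. From day 0 to day 14, 15 of 85 genes rose and 0 fell, a share close to the 15.2% of all genes that rose, and the median log2 change was 0.28. The 5 largest rises were those of Rpl39, Rpl27a, Rps27a, Rpl7 and Rpl5. Rpl39, which lines the exit tunnel of the 60S subunit, was at 106, 111 and 108 CPM at day 0 and 209, 128 and 192 CPM at day 14, with 88.3 and 138 CPM in the resequenced runs. The day 14 libraries were all higher, the highest being those with the GC trend, and the fitted change was 0.70 ± 0.199 (edgeR adjusted p = 0.0121). Rpl4 went from 1712, 1758 and 1738 CPM to 2327, 2284 and 2274 CPM, and from 1757 to 2478 CPM in the resequenced runs, so that libraries with and without the trend were alike, and it rose (0.40 ± 0.104).

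The WT calls at day 14 followed GC content. Of the 29 tested members with at most 49.1% GC, 11 were called with a median log2 change of 0.47, and of the 29 with at least 54.0% GC, 0 were called with a median of 0.14. Leaving out WT day 14 replicate 2, 1 or 3 gave 26, 6 and 8 calls, where 19.1%, 11.7% and 11.8% of all genes rose. Leaving out ATLD day 0 replicate 2 gave 23 (14.8% of all genes) and an offset for GC content gave 31 (21.6%). Leaving out both ATLD libraries of highest share gave 34. From day 0 to day 28 only Rpl4 rose, with a log2 change of 0.32 ± 0.104 (edgeR adjusted p = 0.0337, 12.3% of all genes rose), though the median of 0.30 was like that of day 14. DESeq2 called 1, and 8 had an unadjusted p under 0.05. Without both ATLD libraries of highest share 11 were called. When all 21 libraries were fitted with a batch term, 19 were called and 16.0% of all genes rose. Between day 14 and day 28 no WT member was called (0 of 85 by edgeR and by DESeq2, 0 with an unadjusted p under 0.05, 0.905% of all genes called). The median was 0.03, and 0 were called without both ATLD libraries of highest share. Without WT day 14 replicate 2, however, 14 were called, where 14.3% of all genes were called higher and 5.58% lower. Rpl39l, at 0 counts throughout WT, counts among the 85 with no change.

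The test of the genotype by time difference asks whether ATLD changed from day 0 otherwise than WT did. At day 14 only Rpl4 was called, with a difference of -0.50 ± 0.147 between the log2 changes (edgeR adjusted p = 0.0204, 10.6% of all genes were called lower). The median was -0.32. The count was 0 to 13 when 1 library was left out and 2 without both ATLD libraries of highest share. It was 19 with an offset for GC content and length, where 16.0% of all genes were called lower. At day 28, 48 of 85 genes were called lower and 0 higher, against 14.0% of all genes called lower, with a median of -0.86. The 48 include 25 of 43 genes of the 60S subunit, 22 of 30 of the 40S, Rps27a, and 0 of 6 paralogs. For the paralog Rpl39l, with 0 counts in WT, the difference could not be estimated. The other paralogs were Rps27rt (-0.82 ± 0.368), Rpl22l1 (-0.71 ± 0.319), Rps27l (-0.55 ± 0.334), Rpl36al (-0.32 ± 0.297) and Rpl7l1 (-0.06 ± 0.130). The largest differences were those of Rps12 (-1.36 ± 0.436), Rps13 (-1.30 ± 0.416), Rpl32 (-1.22 ± 0.279), Rpsa (-1.21 ± 0.230) and Rps27a (-1.16 ± 0.269). The calls of Rps12 and Rps13 were each lost in 6 alternatives, all of which left out 1 library, and without ATLD day 0 replicate 2 their differences were -0.93 and -0.89. Between 33 and 61 genes were called when any 1 of the 18 libraries was left out, and 40 without both ATLD libraries of highest share.

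The paralogs were described one by one. Rps27l, a paralog of Rps27 that is a p53 target and whose product binds MDM2, had the largest genotype difference at each day among members whose log2 CPM averaged 1 or more. It was at 91.7, 97.6 and 89.9 CPM in WT at day 0, 106, 92.9 and 101 CPM at day 14 and 91.8, 97.1 and 82.6 CPM at day 28, with 88.7 to 99.2 CPM in the resequenced runs. In ATLD it was at 260, 535 and 285 CPM at day 0, 323, 267 and 523 CPM at day 14 and 244, 251 and 220 CPM at day 28. WT stayed level and every ATLD library was above every WT library. The log2 differences were 1.98 ± 0.261, 1.95 ± 0.263 and 1.38 ± 0.255 (edgeR adjusted p = 6.23e-06 at day 0 and 1.20e-04 at day 28), and they stayed called in all alternatives tried. Within a library, Rps27l had 0.172 to 0.276 counts for each count of Rps27 in WT and 0.344 to 0.507 in ATLD.

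Rps27 itself was at 362, 369 and 360 CPM in WT at day 0 and 625, 1054 and 762 CPM in ATLD, a difference of 1.22 ± 0.192. At day 28 it was at 472, 522 and 421 CPM in WT, 537 CPM in the resequenced run and 700, 590 and 563 CPM in ATLD. The groups still did not overlap, but the difference of 0.36 ± 0.186 was not called (edgeR adjusted p = 0.101).

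Rpl39l, a paralog of Rpl39 that in mouse is best known from spermatogenic cells, was detected in ATLD alone. All 12 WT libraries had 0 counts of it. The ATLD libraries were at 1.68, 2.66 and 1.92 CPM at day 0, 1.11, 0.833 and 1.73 CPM at day 14 and 0.842, 0.934 and 0.823 CPM at day 28, from 283, 159 and 116 counts per group. With the WT group set to 3 counts in all, the limit that a count of 0 allows, ATLD was at least 114-fold higher at day 0, at least 74.8-fold at day 14 and at least 47.1-fold at day 28. In ATLD it fell from day 0 to day 28 by 1.26 ± 0.284 on the log2 scale. Its level is low, with 0.00391 to 0.00877 counts for each count of Rpl39 in ATLD.

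**Figure D4:**
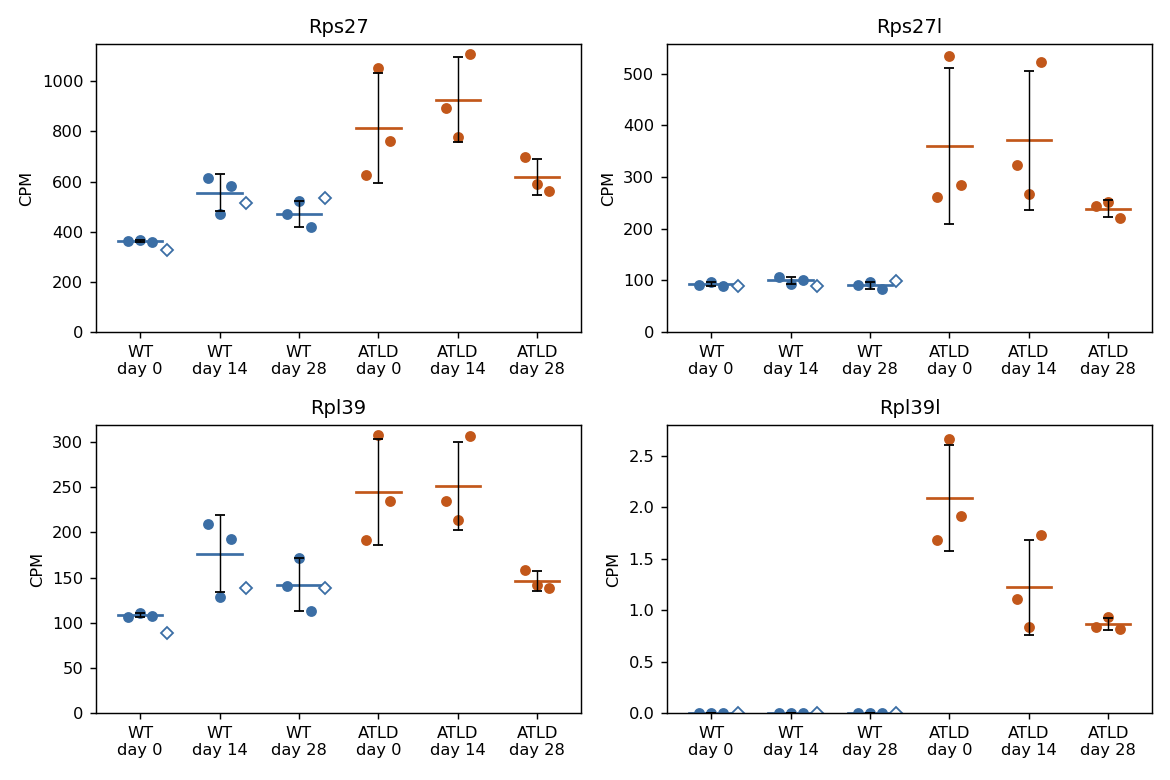
CPM of Rps27 and its paralog Rps27l, and of Rpl39 and its paralog Rpl39l, by group, with WT in blue and ATLD in orange; filled points are original libraries, open diamonds resequenced WT runs, lines the means and bars 1 SD (n = 3). Rps27l stays between 82.6 and 106 CPM in WT and at or above 220 CPM in ATLD at every day, and Rpl39l is at 0 in all WT libraries.

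Of the other paralogs, Rpl22l1 and Rpl22, whose products bind RNA outside the ribosome and regulate each other in mouse, were both higher in ATLD at day 0, by 1.44 ± 0.247 and 1.10 ± 0.152. At day 28 Rpl22l1 was still called (0.68 ± 0.241) and Rpl22 was not (0.27 ± 0.148). The CPM values of Rpl22l1 at day 28, 88.9, 110 and 72.9 in WT and 117, 108 and 101 in ATLD, overlapped, and the resequenced run was at 74.2 CPM. Rpl7l1, whose product acts in 60S assembly, was at 129, 128 and 127 CPM in WT at day 28 and 188, 195 and 173 CPM in ATLD. These did not overlap, with a log2 difference of 0.51 ± 0.098, whereas its paralog Rpl7 (0.05 ± 0.165) was not called. Rpl36al was at 8.80, 5.94 and 8.32 CPM in WT at day 28 and 10.4, 9.91 and 8.37 CPM in ATLD, which overlapped, with a fitted difference of 0.72 ± 0.227 that was called. Rpl36a (0.20 ± 0.148) was not called at that day.

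The mitochondrial ribosomal protein genes, which build the separate ribosome of that organelle, served as the most similar set. Of 77 tested, 74, 71 and 68 were called higher in ATLD at day 0, 14 and 28, with medians of 0.98, 0.90 and 0.75 on the log2 scale, where 26.1%, 30.1% and 29.3% of all genes were called higher. At day 28 the cytosolic genes had 11 of 85 called and a median of 0.22. The difference between the sets was not tested. In ATLD from day 0 to day 28, 10 of 77 mitochondrial genes fell and 1 rose (median -0.19), a share not above the 15.7% of all genes that fell, and when the changes of both genotypes were compared at day 28, 5 were lower and 1 higher (median -0.20). In WT at day 28 against day 0, 0 rose and 1 fell (median -0.02).

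**Figure D5:**
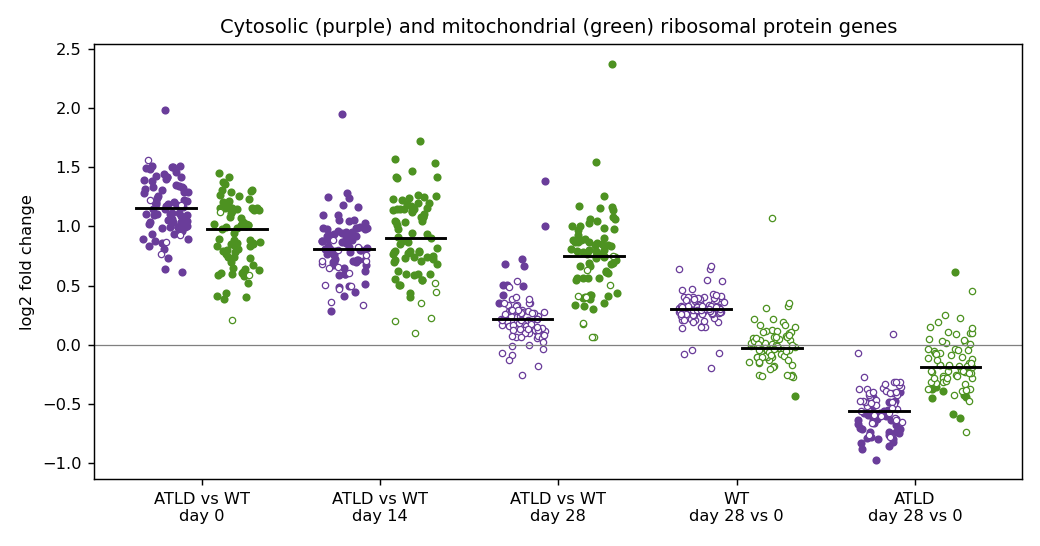
Each point is the fitted log2 fold change of 1 gene in the comparison named below it, for cytosolic (purple, 84 genes, Rpl39l left out) and mitochondrial (green, 77 genes) ribosomal protein genes; filled points passed an adjusted p of 0.05 and black lines are medians. The cytosolic genes come close to 0 in ATLD against WT at day 28 and lie below 0 in ATLD at day 28 against day 0, while the mitochondrial genes keep a median of 0.75 in the former.

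Genes that serve the same pathway were described by lists. Of 30 ribosome biogenesis genes, 19 were higher in ATLD at day 0 and 0 lower (median 0.46; 26.1% of all genes were higher), among them Npm1 (1.15 ± 0.166) and Ncl (0.81 ± 0.141), nucleolar proteins of early assembly. From day 0 to day 28 in ATLD, 20 of the 30 fell and 0 rose (median -0.46; 15.7% of all genes fell), with Dkc1, the pseudouridine synthase of ribosomal RNA, at -0.85 ± 0.133. In WT from day 0 to day 28, 0 of the 30 rose and 4 fell, a share close to the 12.4% of all genes that fell. Of 25 translation factors and other mRNAs with a TOP tract, 18 were higher in ATLD at day 0 and 0 lower (median 0.74), again beside 26.1% of all genes. Eef1a1, the elongation factor that brings tRNA to the ribosome, measured 7490 ± 144 CPM in WT against 14000 ± 2080 CPM in ATLD (0.90 ± 0.132). From day 0 to day 28, 12 of the 25 fell in ATLD (15.7% of all genes did) and 1 rose, Vim (0.71 ± 0.148), which encodes an intermediate filament.

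Genes that control these programs were called in both directions. In the list of 16 genes of mTORC1 and TOP control, 3 were higher and 2 lower in ATLD at day 0, and 3 higher and 7 lower at day 28, where 55.6% and 64.2% of all genes were called in either direction. Larp1, which binds TOP tracts, was lower at day 0 (-0.48 ± 0.169) and at day 28 (-0.71 ± 0.170). Among 10 genes of the MYC network, 1 was higher and 4 lower in ATLD at day 0, where 55.6% of all genes were called, and 4 rose and 2 fell from day 0 to day 28 in ATLD, where 29.8% were. Myc was one of these falls, from 173 ± 7.09 to 91.7 ± 18.8 CPM (-0.92 ± 0.221, edgeR adjusted p = 4.62e-03). In WT, Myc was at 83.7 ± 5.62 CPM at day 0 and 70.0 ± 18.1 CPM at day 28 and was not called (edgeR adjusted p = 0.478). The genotype by time difference for Myc was -0.66 ± 0.310 and was not called either (edgeR adjusted p = 0.134).

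The list of RPL5, RPL11 and p53 surveillance holds 6 members of the set (Rpl5, Rpl11, Rps27, Rps27l, Rpl26, Rps7) beside 5 other genes. Of its 11 genes, 8 were higher in ATLD at day 0 and 1 lower, where 26.1% and 29.5% of all genes were. All 6 members are among the 8, so this count largely repeats the result for the set. Mdm2 measured 83.7 ± 0.899 CPM in WT against 74.9 ± 4.10 CPM in ATLD and was not called (edgeR adjusted p = 0.764). Cdkn1a, a p53 target that halts the cell cycle, was at 64.2 ± 2.90 and 143 ± 8.43 CPM (1.0 ± 0.117), while Mdm4, a second inhibitor of p53, was lower in ATLD (-1.23 ± 0.202). At day 28 Cdkn1a measured 161 ± 12.7 CPM in WT against 171 ± 18.1 CPM in ATLD and was not called, unlike Rps27l. Of 7 tested chaperones that carry a ribosomal protein into assembly, 5 were higher in ATLD at day 0 and 0 lower (26.1% of all genes were higher). From day 0 to day 28 in ATLD 2 of the 7 fell, Nap1l1 (-0.90 ± 0.125) and Tsr2 (-0.49 ± 0.108), where 15.7% of all genes fell.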

How the data were processed

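Per the labels' protocols, polyadenylated RNA was made into TruSeq stranded libraries. The authors deposited 1 table of raw counts per gene for 21 libraries, with a length column (bases) that was used only to order levels per length. Counting with featureCounts, use of DESeq2 and build mm10 are named per the submitters' processing notes, without versions. Which aligner, strand setting and gene annotation the authors chose is not given in the sources used here. All gene IDs were matched to GENCODE vM21 (55536 of 55536).

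From the deposited counts, genes were kept by filterByExpr (count minimum 10, total minimum 15), scaled by TMM and tested with edgeR 4.0.16 (R 4.3.3, limma 3.58.1) by the quasi-likelihood test with Benjamini-Hochberg adjustment over all genes at 0.05 and a prior count of 0.125. Time and genotype by time contrasts used 18 original libraries (18684 genes; 12 residual df). ATLD against WT used all 21 and a term for batch (18844 genes; 14 residual df), which treats a repeat run of a culture as a further library. Library deviations used log2(CPM + 0.5). Alternatives were other scaling, no filter, DESeq2 1.42.0, GC and length offsets, a replicate block, other library sets and leaving out each library. The fitting was tested on simulated data. No libraries of a group agreed within sampling noise (lowest chi-square per gene 3.06). A count of 0 was read as allowing 3 counts, which like all limits covers counting error only. In each comparison the 5 largest called rises and falls among members averaging a log2 CPM of 1 or more were named, with a fixed set of members and paralog pairs; Rps13, Rps7, Rps25, Rpl4, Rpl3, Rpl10, Rpl41 and others are named under it or beside a result. Members and lists were chosen with earlier results of these data known.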

Additional observations from a re-analysis of the deposited data

Results flagged for a closer look

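The change of the cytosolic ribosomal protein genes with time differed between the genotypes by the test of the difference itself. At day 14 this held for 1 gene, Rpl4, with a difference of -0.501 between the log2 changes of ATLD and WT. At day 28 it held for 48 genes, all with a lower change in ATLD. For the small subunit the differences were -1.365 for Rps12, -1.304 for Rps13, -1.21 for Rpsa, -1.155 for Rps27a, -0.985 for Rps6, -0.81 for Rps4x and -0.772 for Rps27. For the large subunit they were -1.222 for Rpl32, -1.128 for Rpl39, -0.993 for Rpl7, -0.922 for Rpl5, -0.851 for Rpl11, -0.832 for Rpl36a, -0.76 for Rpl22, -0.66 for Rpl3 and -0.655 for Rpl10. Both contrasts share the day 0 libraries, ATLD day 0 replicate 2 among them.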

How the results depend on the processing

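Counts are of 85 genes tested, and the cause of each move was not tested. The share of all genes called moved with the setting too. Where given, it stands in brackets after the count. It is the share called higher for WT and for ATLD against WT, and called lower for ATLD and genotype by time. For WT day 14 against day 0 the count of 15 (15.2%) became 31 (21.6%) with a GC offset and 45 (23.3%) with a GC and length offset. It was 28 (20.1%) with the replicate block and GC offset, 27 (14.0%) with WT alone and 25 (12.9%) with the compared groups alone. It was 30 (18.7%) with all 21 libraries and a batch term, and 34 without the 2 ATLD libraries of highest share. For WT day 28 against day 0 the count of 1 (12.3%) became 0 (6.06%) without a filter, 5 (17.7%) with the GC offset and 24 (19.3%) with GC and length. It was 3 (16.3%) with the block and GC, 11 (12.3%) with WT alone and 19 (13.8%) with the compared groups alone. It was 3 (11.6%) with resequenced runs in place of the originals and 19 (16.0%) with 21 libraries. Without the 3 WT libraries low in GC-rich genes it was 13, and without the 2 ATLD libraries 11. In ATLD, day 14 against day 0 gave 1 with GC and length, and day 28 against day 0 gave 26 without the 2 ATLD libraries. In ATLD, day 28 against day 14 gave 62 with GC and length (13.6%, against 9.05% in the main fit). It gave 60 without the 3 WT libraries and 25 without the 2 ATLD libraries. The day 14 genotype by time count of 1 (10.6%) became 2 without a filter, 7 with GC and 19 (16.0%) with GC and length. It was 4 with the block and GC, 3 with scaling factors made without ribosomal protein genes and 6 with 21 libraries. It was 10 without the 3 WT libraries and 2 without the 2 ATLD libraries. Where no share follows these day 14 counts, they are not read as a difference of the members from all genes. For ATLD against WT at day 28 the count of 11 (29.3%) became 34 (40.8%) with GC and 18 (41.2%) with GC and length. Of these 18, 1 was called lower. The count was 19 (38.8%) with the block and GC. It was 46 (33.1%) with the originals and no batch term, 6 (26.6%) in the second batch alone and 20 without the 2 ATLD libraries. The settings that leave out the 3 WT or the 2 ATLD libraries were chosen after seeing the data.

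Leaving out 1 library gave 6 to 26 calls for WT day 14 against day 0, 0 to 4 for WT day 28 against day 0, 0 to 14 for WT day 28 against day 14 (14 without WT day 14 replicate 2), 0 to 1 for ATLD day 14 against day 0, 12 to 53 for ATLD day 28 against day 0, 5 to 49 for ATLD day 28 against day 14, 0 to 13 and 33 to 61 for genotype by time at days 14 and 28, and 54 to 83, 51 to 83 and 6 to 14 for ATLD against WT at days 0, 14 and 28. For single genes, 7285 of 7676 values kept their side of the threshold, 202 passed it newly and 189 no longer did, and none of them changed sign while called. Mean shares of counts moved by less than 1 SD without mitochondrial transcripts or with pseudogenes added.

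Replicate numbers did not pair the samples: same-number correlations ran from -0.891 to 0.604, all exceeded 0.1 in 0 of 15 pairs of groups, and in 0 of 15 did every library correlate best with its own number. With the replicate block the counts were 12, 0 and 0 for the WT comparisons (day 14 and day 28 against day 0, day 28 against day 14), 0, 36 and 31 for those in ATLD, 1 and 43 for genotype by time, and 72, 63 and 7 for ATLD against WT.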
